A study of Mus musculus with 6 samples.

Results

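The genes described here were 10 nucleic acid sensors and the factors that act directly with them, taken by symbol from a deposited table of 52550 genes. All 10 were found, and all 10 were among the 16402 genes with enough counts to be tested. They were Ddx58 (RIG-I), Ifih1 (MDA5), Dhx58 (LGP2), Mavs, Zbp1, Eif2ak2 (PKR), Tlr7, Tlr9, Trex1 and Samhd1. They were followed in RNA-seq of bone marrow-derived macrophages from MSR1 KO and MSR1 WT mice, 3 libraries of each genotype. All mice were of the C57BL/6 strain, marrow cells had been grown in 25 ng/ml M-CSF during 7 days, and all macrophages had then shared a transwell system with bone marrow mesenchymal stem cells (BMSCs) for 48 h. The only labelled difference between the groups was the Msr1 genotype, which came from whole knockout mice. The labels give no age or sex, do not tie a library to an animal, and hold no macrophages kept without BMSCs. P-values therefore measure the spread between these libraries. MSR1 is a scavenger receptor of the macrophage surface, and the study asked what its loss changes in macrophages of this co-culture system.

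Cells detect foreign or misplaced nucleic acids with several families of proteins. RIG-I and MDA5 bind double-stranded RNA in the cytosol and signal through the mitochondrial adaptor MAVS, ZBP1 and PKR are cytosolic sensors with effector functions of their own, and TLR7 and TLR9 read RNA and DNA in endosomes. TREX1 and SAMHD1 limit the ligands, the former by degrading DNA and the latter by hydrolysing dNTPs. In macrophages, many of these genes are known to be induced by type I interferon, which the same pathways can switch on, whereas Mavs is generally held to be expressed constitutively.

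Total counts ranged from 36143518 to 47417448 per library, and Msr1 itself fell in the MSR1 KO libraries, from 199.7 ± 20.9 CPM to 49.3 ± 8.51 CPM (SD, n = 3; log2 fold change -2.02, SE 0.14, edgeR adjusted p = 0.0012). CPM are counts scaled to a common library size with TMM factors. Macrophage markers were abundant in every library, with summed levels of 23930 to 25280 CPM in MSR1 KO and 24670 to 27550 CPM in MSR1 WT, led by Lyz2 and Csf1r. The labelled cell type therefore had its markers. Other cells were also traced. For the counts below, 2.25% of all tested genes rose and 2.66% fell by edgeR at an adjusted p under 0.05. Without adjustment, 8.65% were higher and 10.2% lower at p under 0.05. DESeq2 called 4.54% higher and 5.2% lower among genes to which it gave an adjusted p. Of 13 stromal markers, led by Col1a2 and Col1a1, 0 rose and 3 fell (Pdgfra, Pdgfrb and Cxcl12) by edgeR, and their sum was 1223 to 1602 CPM in MSR1 KO and 1550 to 1961 CPM in MSR1 WT. At an unadjusted p under 0.05, 2 of these markers were higher and 5 lower, and DESeq2 gave the same 2 counts after adjustment. The stromal list thus did not move in 1 direction. The 2 higher markers were Thy1 (log2 fold change 1.31, DESeq2 adjusted p = 0.0055) and Eng (0.47, DESeq2 adjusted p = 0.023), both without overlap. Among plasmacytoid dendritic cell markers, known for high Tlr7 and Tlr9 expression, Klk1 and Ly6d were at 0 in every library and Siglech reached at most 0.75 CPM. The other 8 of these 10 markers, led by Irf8 and Tcf4, brought the sum to 501.4 to 529 CPM in MSR1 KO and 456 to 510.5 CPM in MSR1 WT. Most of it was Irf8 (351 ± 12.1 CPM in MSR1 KO and 327 ± 18.3 CPM in MSR1 WT) and Tcf4 (113 ± 13.1 CPM and 107 ± 7.63 CPM). Pacsin1 reached at most 0.327 CPM and Cox6a2 at most 0.929 CPM. The sum therefore follows a few genes and does not measure the share of these cells. Of the 7 tested, 0 rose and 0 fell by edgeR (unadjusted, 1 higher and 0 lower; DESeq2, 1 and 0). The higher one was Ccr9, at 3.78 ± 0.842 CPM in MSR1 KO and 1.17 ± 0.893 CPM in MSR1 WT without overlap (log2 fold change 1.69, edgeR adjusted p = 0.1, DESeq2 adjusted p = 0.0075). Of the 3 B cell markers tested, 0 rose and 1 fell by edgeR (unadjusted and DESeq2, 1 higher and 1 lower). The marker that fell was Ebf1, at 4.81 ± 0.593 CPM in MSR1 KO and 10.09 ± 1.2 CPM in MSR1 WT (log2 fold change -1.07, edgeR adjusted p = 0.018). Ms4a1 reached at most 0.0968 CPM, while Ighm had 194 ± 37.0 CPM in MSR1 KO and 124 ± 22.7 CPM in MSR1 WT (SD, n = 3; edgeR adjusted p = 0.067) and Cd79b had 20.6 ± 1.92 CPM and 17.0 ± 2.55 CPM (edgeR adjusted p = 0.33). Neutrophil markers, led by Csf3r and Ngp, summed to 917 to 1323 CPM in MSR1 KO and 645 to 1035 CPM in MSR1 WT, and of 10 tested 0 rose and 0 fell by edgeR (unadjusted, 3 higher and 0 lower; DESeq2, 2 and 0). The sum of T and NK cell markers, led by Cd4 and Klrb1c, was 116 to 169 CPM in MSR1 KO and 95.7 to 156 CPM in MSR1 WT, most of it Cd4 (114 ± 22.2 CPM and 116 ± 24.6 CPM). Of the 7 tested, Klrb1c rose (8.40 ± 0.789 CPM and 3.21 ± 1.25 CPM, log2 fold change 1.39, edgeR adjusted p = 0.028) and 0 fell (unadjusted, 3 higher and 0 lower; DESeq2, 2 and 0), and the median log2 fold change was 1.11. Lck (1.45) and Trac (1.11) were higher DEGs by the study's rule, given below, without passing edgeR's adjusted threshold. The sum of conventional dendritic cell markers, led by Itgax and Zbtb46, was 19.5 to 28.8 CPM in MSR1 KO and 79.0 to 147 CPM in MSR1 WT. Most of this was Itgax, which fell from 111 ± 33.1 CPM to 19.6 ± 5.04 CPM (log2 fold change -2.50, edgeR adjusted p = 0.0045). Zbtb46 had 1.08 ± 0.414 CPM in MSR1 KO and 1.57 ± 0.365 CPM in MSR1 WT, and Flt3 reached at most 0.581 CPM. Of the 7 tested, 0 rose and 1 fell by edgeR (unadjusted, 2 higher and 1 lower; DESeq2, 1 and 1), and the median log2 fold change was 0.16. Xcr1 (2.04) and Ccr7 (2.49) were higher DEGs by the study's rule with no overlap between the groups, at means under 1 CPM. Thy1, Eng, Pacsin1, Cox6a2, Ccr9, Ebf1, Lck, Trac, Flt3, Xcr1 and Ccr7 were named after their values had been seen. The part of these shifts in the results on the sensors was not tested.

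Of the 10 genes, 7 rose in the MSR1 KO macrophages and 0 fell, at an adjusted p under 0.05 in edgeR's quasi-likelihood test over all tested genes. Over the whole table, 2.25% of tested genes rose and 2.66% fell by this rule. At an unadjusted p under 0.05, 8 of the 10 were higher and 0 lower, where 8.65% of tested genes were higher and 10.2% lower. DESeq2 called 8 of the 10 higher and 0 lower after adjustment, beside 4.54% and 5.2% of the 15297 genes to which it gave an adjusted p. The genes that rose were Zbp1, Dhx58, Samhd1, Tlr9, Ifih1, Ddx58 and Eif2ak2. Trex1, Tlr7 and Mavs did not pass. The median log2 fold change of the 10 genes was 0.71, beside -0.0023 for all tested genes. In the same 7 genes every MSR1 KO library lay above every MSR1 WT library, as in 12.1% of tested genes. The study's rule for DEGs asks for a change of more than 1.5-fold and p under 0.05, without saying whether p was adjusted. The rule was applied here to the unadjusted p. By it, 7 of the 10 were higher DEGs and 0 lower, where 3.59% of tested genes were higher and 5.05% lower DEGs. That set held Trex1 and left out Eif2ak2, whose fold change was 1.48. In bulk RNA, a change in the share of cells that express a gene and a change in RNA per cell cannot be told apart.

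The calls depended on which libraries were in the fit. Without MSR1 KO replicate 2, MSR1 WT replicate 1 or MSR1 WT replicate 2, 0 of the 10 genes passed the adjusted threshold, and without MSR1 KO replicate 1 only Trex1 passed. Without MSR1 KO replicate 3, Zbp1, Tlr9 and Samhd1 passed, and without MSR1 WT replicate 3 the count was 7. Across all tested genes, the number that rose went from 369 to between 18 and 407 when a library was left out. The fold changes of the 7 genes stayed positive in each of these fits, and the count of DEGs by the study's rule lay between 5 and 8.

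**Figure D1:**
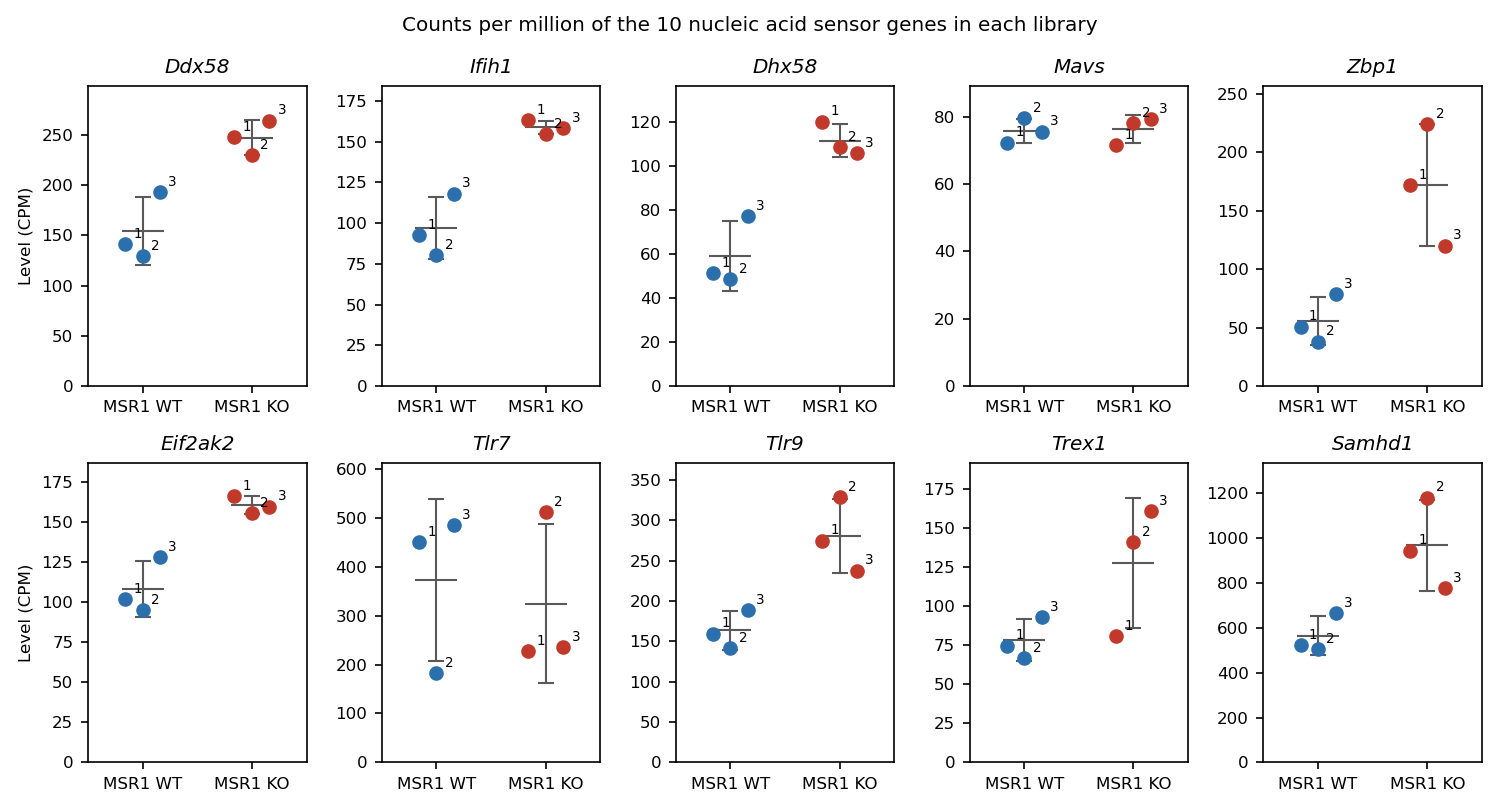
Level of each sensor gene in CPM (linear axis from 0) in the 3 MSR1 WT (blue) and 3 MSR1 KO (red) libraries. Numbers beside the points are replicate numbers, and the grey bars give the mean ± SD. In 7 panels the red points lie above all blue points, while Mavs, Tlr7 and Trex1 overlap.

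All 3 RIG-I-like receptors rose, with log2 fold changes from 0.68 to 0.92. RIG-I, encoded by Ddx58 (ENSMUSG00000040296.15, chr4:40203773-40239828 of GRCm38), is a helicase that recognises short double-stranded RNA with a triphosphate end. Ddx58 had 248, 229.7 and 264 CPM in MSR1 KO and 142, 129.5 and 193 CPM in MSR1 WT libraries, in the order of replicates 1, 2 and 3. The MSR1 KO values were close together, and MSR1 WT replicate 3 came nearest to them. The means were 247 ± 17.3 CPM and 155 ± 33.7 CPM (SD, n = 3), a 1.60-fold difference (log2 fold change 0.68, SE 0.14, edgeR adjusted p = 0.038).

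MDA5, the product of Ifih1 (ENSMUSG00000026896.14, chr2:62595798-62646255), binds long double-stranded RNA. Ifih1 had 163, 155 and 158 CPM in MSR1 KO and 92.5, 80.4 and 118 CPM in MSR1 WT libraries. Its 3 MSR1 KO values spanned 1.05-fold (highest over lowest) and its MSR1 WT values 1.47-fold. Its log2 fold change was 0.71 (SE 0.13, edgeR adjusted p = 0.027), or 1.64-fold.

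LGP2, encoded by Dhx58 (ENSMUSG00000017830.15, chr11:100694884-100704271), lacks the signalling domains of the other receptors and modulates them. Dhx58 had 120.0, 108 and 106 CPM in MSR1 KO and 51.2, 48.4 and 77.2 CPM in MSR1 WT libraries. Even the lowest MSR1 KO value was 1.37 times the highest MSR1 WT value. The log2 fold change was 0.92 (SE 0.17, edgeR adjusted p = 0.027), or 1.89-fold. Exons of the antisense gene Dhx58os cover 4.31% of the Dhx58 exon bases, and since the strand setting of the counting is not given, reads there could belong to either gene. Dhx58os held 407 counts over all libraries and Dhx58 held 21143.

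MAVS, the shared adaptor of RIG-I and MDA5 (ENSMUSG00000037523.13, chr2:131234063-131248025), did not pass the test. Mavs had 71.5, 78.2 and 79.5 CPM in MSR1 KO and 72.3, 79.5 and 75.7 CPM in MSR1 WT libraries. The groups overlapped almost completely, with means of 76.4 ± 4.24 CPM and 75.8 ± 3.61 CPM (SD, n = 3). The log2 fold change was 0.01 (95% interval -0.17 to 0.19, or 0.89-fold to 1.14-fold, edgeR adjusted p = 0.96), and its sign turned when scaling used library size alone (-0.02). A 1.5-fold change in either direction lies outside that interval.

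Ratios within a library do not depend on scaling. The log2 ratio of Ddx58 to Ifih1 was 0.64 ± 0.09 in MSR1 KO and 0.67 ± 0.05 in MSR1 WT libraries (SD, n = 3; exact permutation test, two-sided, p = 0.7, adjusted over 6 ratios 0.7), a difference smaller than the spread between replicates. The log2 ratio of Dhx58 to Ifih1 was -0.51 ± 0.07 in MSR1 KO and -0.73 ± 0.12 in MSR1 WT libraries without overlap (exact permutation p = 0.1, adjusted 0.2). That of Dhx58 to Ddx58 was -1.15 ± 0.15 and -1.403 ± 0.075 (exact permutation p = 0.1, adjusted 0.2), with MSR1 KO replicate 3 (-1.3206) level with MSR1 WT replicate 3 (-1.3208). With 3 libraries against 3, 0.1 is the smallest p that this test can give.

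Promoters are shown for the 3 members with a match to the element described next, for Tlr9 and Samhd1, which rose without a match, and for Mavs. RefSeq promoters of GRCm38.p6, running from 250 bases before to 50 bases after the start, were matched by symbol for 7 of the 10 genes. Dhx58, Zbp1 and Tlr7 were not matched. The windows below are chr4:40239776-40240075 on the minus strand for Ddx58, chr2:62646206-62646505 on the minus strand for Ifih1, chr17:78882523-78882822 on the minus strand for Eif2ak2, chr2:131233813-131234112 on the plus strand for Mavs, chr9:106222348-106222647 on the plus strand for Tlr9 and chr2:157135047-157135346 on the minus strand for Samhd1. Each is written 5′ to 3′ on the strand of the gene, and capitals mark a match to the core of the interferon-stimulated response element (ISRE), searched on both strands as GAAA, any 2 bases and GAAA.
Ddx58: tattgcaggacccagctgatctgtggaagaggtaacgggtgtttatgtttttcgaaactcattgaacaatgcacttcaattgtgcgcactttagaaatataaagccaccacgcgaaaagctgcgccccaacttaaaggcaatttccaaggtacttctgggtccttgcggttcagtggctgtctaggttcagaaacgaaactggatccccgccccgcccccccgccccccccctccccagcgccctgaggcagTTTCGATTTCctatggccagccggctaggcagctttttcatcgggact
Ifih1: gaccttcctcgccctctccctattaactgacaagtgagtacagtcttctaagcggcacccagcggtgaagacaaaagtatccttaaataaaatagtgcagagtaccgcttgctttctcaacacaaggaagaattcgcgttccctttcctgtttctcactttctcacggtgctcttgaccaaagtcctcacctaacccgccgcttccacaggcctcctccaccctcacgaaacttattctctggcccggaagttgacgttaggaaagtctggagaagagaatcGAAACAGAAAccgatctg
Eif2ak2: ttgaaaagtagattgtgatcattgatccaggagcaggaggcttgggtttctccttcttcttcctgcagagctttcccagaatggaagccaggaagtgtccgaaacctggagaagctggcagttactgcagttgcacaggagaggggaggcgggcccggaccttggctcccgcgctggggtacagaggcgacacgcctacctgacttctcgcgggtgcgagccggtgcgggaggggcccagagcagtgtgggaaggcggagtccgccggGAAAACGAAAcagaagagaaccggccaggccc
Mavs: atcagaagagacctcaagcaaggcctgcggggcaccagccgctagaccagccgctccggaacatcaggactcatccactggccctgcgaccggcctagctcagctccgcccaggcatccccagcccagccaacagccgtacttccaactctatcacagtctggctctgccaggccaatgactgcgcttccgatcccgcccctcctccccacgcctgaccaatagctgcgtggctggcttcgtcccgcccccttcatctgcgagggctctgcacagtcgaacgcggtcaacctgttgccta
Tlr9: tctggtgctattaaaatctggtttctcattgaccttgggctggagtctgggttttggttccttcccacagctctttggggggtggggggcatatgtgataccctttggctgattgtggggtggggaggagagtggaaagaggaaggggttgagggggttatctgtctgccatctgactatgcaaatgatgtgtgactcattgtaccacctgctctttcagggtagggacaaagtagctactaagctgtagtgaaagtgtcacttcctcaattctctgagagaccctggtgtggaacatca
Samhd1: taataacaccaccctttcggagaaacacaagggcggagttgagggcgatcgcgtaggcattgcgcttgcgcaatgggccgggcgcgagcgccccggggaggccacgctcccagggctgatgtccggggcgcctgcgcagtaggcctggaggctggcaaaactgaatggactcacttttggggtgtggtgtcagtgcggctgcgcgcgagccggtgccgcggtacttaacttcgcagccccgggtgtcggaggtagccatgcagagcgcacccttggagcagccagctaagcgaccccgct
The ISRE core was found in Ddx58 (on the opposite strand, +3 to +12 from the start), Ifih1 (+33 to +42) and Eif2ak2 (+19 to +28), all of which rose. It was not found in these windows of Mavs, Tlr9, Trex1 or Samhd1, of which Tlr9 and Samhd1 also rose. Of all 32817 RefSeq promoters of the same length, 3.43% hold it, and 3.98% of their 26994 genes do. The gamma-activated site was searched as TTCNNNGAA, which reads the same on both strands. It was found in Eif2ak2 (-178 to -170) and Samhd1 (-235 to -227), in 8.29% of all promoters and in 9.55% of their genes. These matches describe letters in the windows and do not show binding.

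Of the cytosolic sensors outside the RIG-I family, Zbp1 had the largest change of the 10 genes and Eif2ak2 the smallest of those that passed. ZBP1 (ENSMUSG00000027514.14, chr2:173206612-173218923) binds nucleic acids in the left-handed Z form and engages the kinase RIPK3. Zbp1 had 172, 224 and 120.2 CPM in MSR1 KO and 50.8, 37.9 and 78.3 CPM in MSR1 WT libraries. MSR1 KO replicate 2 was the highest and MSR1 WT replicate 2 the lowest, and the values spanned 1.86-fold within MSR1 KO and 2.07-fold within MSR1 WT. The means were 172 ± 51.9 CPM and 55.6 ± 20.6 CPM (SD, n = 3), a 3.09-fold rise (log2 fold change 1.63, SE 0.29, 95% interval 0.96 to 2.30, edgeR adjusted p = 0.026). With a library left out, this log2 fold change lay between 1.39 and 1.96.

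PKR, the product of Eif2ak2 (ENSMUSG00000024079.4, chr17:78852564-78882573), is a kinase that halts translation when it binds double-stranded RNA. Eif2ak2 had 166, 155 and 159 CPM in MSR1 KO and 102, 94.9 and 128 CPM in MSR1 WT libraries. The MSR1 KO values spanned only 1.07-fold, and all exceeded the highest MSR1 WT value by at least 1.21-fold. The log2 fold change was 0.57 (SE 0.11, edgeR adjusted p = 0.032). Exons of Gm26637 and n-R5s29 on the opposite strand cover 4.32% of its exon bases, and Gm26637 held 1072 counts over all libraries beside 33543 for Eif2ak2.

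Of the endosomal receptors, Tlr9 rose and Tlr7 did not pass. TLR9 (ENSMUSG00000045322.10, chr9:106222598-106226883) recognises DNA with unmethylated CpG. Tlr9 had 275, 328 and 238 CPM in MSR1 KO and 159.5, 142 and 189 CPM in MSR1 WT libraries. No values overlapped, and MSR1 KO replicate 2 was the highest. Its log2 fold change was 0.78 (SE 0.14, edgeR adjusted p = 0.026), or 1.71-fold.

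TLR7 (ENSMUSG00000044583.13, chrX:167304929-167330558) recognises single-stranded RNA. Tlr7 had 227, 512 and 235 CPM in MSR1 KO and 449.9, 182 and 486 CPM in MSR1 WT libraries. High and low libraries occurred in both genotypes, since MSR1 KO replicate 2 and MSR1 WT replicates 1 and 3 were high and the other 3 libraries were low. The means of 325 ± 162 CPM and 372 ± 166 CPM (SD, n = 3) differed by less than the spread between replicates (log2 fold change -0.20, edgeR adjusted p = 0.86). The 95% interval of -1.14 to 0.74, or 0.454-fold to 1.67-fold, holds a fall as large as the rise of Tlr9 (0.78), whereas a rise of that size lies just outside it. The log2 ratio of Tlr7 to Tlr9 was 0.12 ± 0.47 in MSR1 KO and 1.07 ± 0.62 in MSR1 WT libraries and overlapped (exact permutation p = 0.2, adjusted 0.3).

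Of the factors that limit the ligands, Samhd1 rose and Trex1 did not pass the adjusted threshold. SAMHD1 (ENSMUSG00000027639.16, chr2:157097533-157135265) hydrolyses dNTPs and restricts retroviruses. Samhd1 was the most counted of the 10 genes, with 943, 1179 and 777 CPM in MSR1 KO and 521, 506 and 664 CPM in MSR1 WT libraries. MSR1 KO replicate 2 was the highest, and the lowest MSR1 KO value was 1.17 times the highest MSR1 WT value. Its log2 fold change was 0.78 (SE 0.16, edgeR adjusted p = 0.035), or 1.72-fold.

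TREX1 (ENSMUSG00000049734.9, chr9:109057933-109059734) is an exonuclease that degrades DNA in the cytosol. Trex1 had 80.9, 141 and 161 CPM in MSR1 KO and 74.7, 66.8 and 93.0 CPM in MSR1 WT libraries. MSR1 KO replicate 1 lay within the MSR1 WT range, whereas the other 2 MSR1 KO libraries exceeded every MSR1 WT library. The log2 fold change was 0.71 (SE 0.24), with an unadjusted p of 0.0169 and an adjusted p of 0.15 from edgeR, an adjusted p of 0.0104 from DESeq2, and an adjusted p of 0.049 from edgeR without MSR1 KO replicate 1. Over all alternatives its adjusted p lay between 0.0104 and 0.372. All 1147 exon bases of Trex1 are also exonic in Atrip on the same strand, so their reads cannot be assigned with certainty. Atrip, named because of this overlap, had 378, 86 and 177 counts in MSR1 KO and 64, 70 and 106 in MSR1 WT libraries, and its highest value fell in the MSR1 KO library where Trex1 was lowest. Over all libraries Atrip held 881 counts and Trex1 26100. Whether reads were split between them was not tested. The log2 ratio of Trex1 to Samhd1 was -2.96 ± 0.64 in MSR1 KO and -2.85 ± 0.06 in MSR1 WT libraries (exact permutation p = 0.7, adjusted 0.7).

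Per exon length, the order of the mean levels was not the same in both genotypes. Levels were divided by the length of all annotated exons of a gene (RPKM, CPM per kilobase of exon). These lengths ran from 1147 bases for Trex1 to 9150 for Samhd1. Which annotated exons were in use was not tested, so the order between genes depends on the annotation. In MSR1 WT libraries Tlr7 was the highest at 91.2 ± 40.6 RPKM (SD, n = 3), followed by Trex1 at 68.2 ± 11.8, Samhd1 at 61.6 ± 9.55 and Tlr9 at 47.0 ± 6.82 RPKM. The receptors of cytosolic RNA were lower, and Ifih1 was the lowest at 11.9 ± 2.35 RPKM. Between them lay Mavs (22.7 ± 1.08), Ddx58 (21.9 ± 4.77), Eif2ak2 (21.2 ± 3.42), Dhx58 (18.0 ± 4.86) and Zbp1 (15.8 ± 5.85 RPKM). Among neighbours in this order, Samhd1 and Tlr9 did not overlap across the MSR1 WT libraries, nor did Tlr9 and Mavs, and every other neighbouring pair overlapped.

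In MSR1 KO libraries the order was Trex1 (111 ± 36.4 RPKM), Samhd1 (106 ± 22.1), Tlr9 (80.6 ± 13.1), Tlr7 (79.5 ± 39.7), Zbp1 (48.8 ± 14.7), Ddx58 (35.1 ± 2.45), Dhx58 (34.1 ± 2.30), Eif2ak2 (31.3 ± 1.07), Mavs (22.8 ± 1.27) and Ifih1 (19.4 ± 0.520 RPKM). Zbp1 moved from rank 9 to rank 5 and Mavs from rank 5 to rank 9. Rank 5 is not separate from its neighbours, since the MSR1 KO range of Zbp1 (34.1 to 63.5 RPKM) overlapped those of Tlr7, Ddx58 and Dhx58. The range of Mavs overlapped those of Ddx58, Eif2ak2 and Dhx58 in MSR1 WT libraries and lay below all of them in MSR1 KO libraries. The log2 ratio of Zbp1 to Mavs, in CPM, was 1.13 ± 0.48 in MSR1 KO and -0.51 ± 0.56 in MSR1 WT libraries without overlap (exact permutation p = 0.1, adjusted 0.2). Since Mavs barely changed (log2 fold change 0.01), this ratio repeats the change of Zbp1 (1.63) and adds no separate result.

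The sensors also shared a pattern inside the MSR1 WT group. In 9 of the 10 genes, all but Mavs, the MSR1 WT libraries ranked in the order replicate 3, 1 and 2, an order that 17.5% of tested genes had. MSR1 WT replicate 3 exceeded replicate 2 by 2.67-fold for Tlr7, 2.07-fold for Zbp1, 1.60-fold for Dhx58 and 1.31-fold for Samhd1, the smallest of the 9. In the MSR1 KO libraries the genes divided. Zbp1, Tlr9 and Samhd1 ranked in the order replicate 2, 1 and 3 (18.1% of tested genes), while Ifih1 and Eif2ak2 ranked 1, 3 and 2 and spanned less than 1.1-fold. Trex1 and Mavs ranked 3, 2 and 1, Dhx58 ranked 1, 2 and 3, Ddx58 ranked 3, 1 and 2, and Tlr7 ranked 2, 3 and 1.

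**Figure D2:**
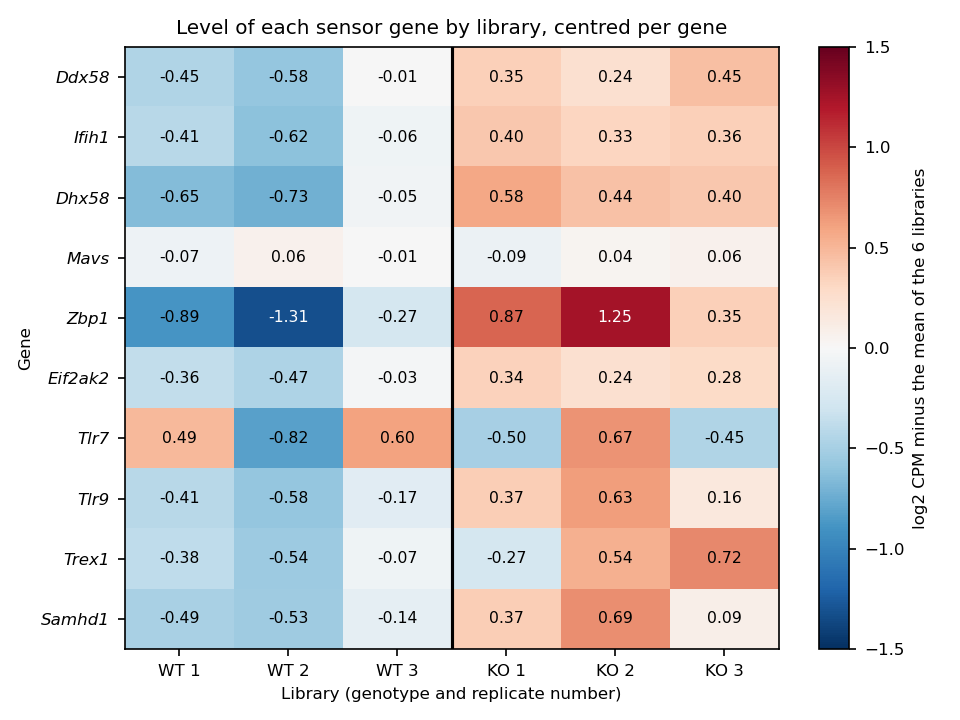
Log2 CPM of each gene (rows) in each library (columns), minus the mean of that gene over the 6 libraries. Red is above and blue below the mean. WT 3 is the palest of the WT columns for most genes, Mavs is near 0 in every library, and Tlr7 is high in WT 1, WT 3 and KO 2.

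Within-group spread, taken as the pooled SD of log2 CPM inside the groups, was 0.73 for Tlr7, 0.49 for Zbp1 and 0.41 for Trex1, against 0.08 for Mavs. Among the 2169 genes with a mean of at least 100 CPM, 99.5% had a smaller spread than Tlr7, 98.5% than Zbp1 and 97.3% than Trex1, and 33.1% than Mavs. Mavs itself, at 76.4 and 75.8 CPM in MSR1 KO and MSR1 WT, lies below that cut. Its share is therefore a comparison with more highly counted genes. The remaining 6 genes lay between 0.16 and 0.27. Tlr8, the neighbour of Tlr7 on the X chromosome, was looked up after this was seen and had a spread of 0.08.

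**Figure D3:**
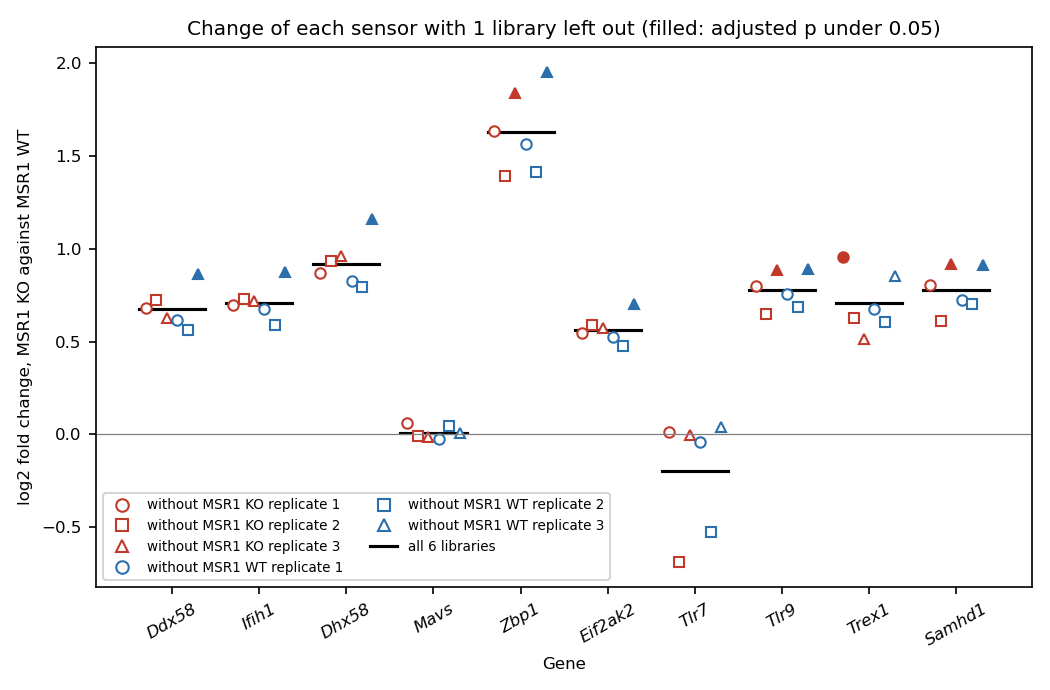
Log2 fold change of each gene (MSR1 KO against MSR1 WT) with all 6 libraries (black lines) and with each library left out in turn (symbols, filled where the edgeR adjusted p was under 0.05). The 7 genes that rose stay above 0 in each fit, Zbp1 between 1.39 and 1.96, while Tlr7 spans -0.69 and 0.04.

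The other genes of these pathways were taken from 8 lists of 104 genes. Of the 103 tested, 11 rose (10.7%, beside the 2.25% of all tested genes) and 0 fell by edgeR, and their median log2 fold change was 0.05. At an unadjusted p under 0.05, 26 were higher and 10 lower (8.65% and 10.2% of all tested genes), and DESeq2 called 15 higher and 7 lower after adjustment (4.54% and 5.2% of all genes). The 10 lower genes of 103 are a share near that of all genes. These same shares apply to the counts of each list given in parentheses below. The count of 11 went to 0 with MSR1 KO replicate 1 or MSR1 WT replicate 1 left out, to 1 for MSR1 WT replicate 2, to 4 for MSR1 KO replicate 2 or 3, and to 9 for MSR1 WT replicate 3.

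Among the regulators and signalling factors of RIG-I and MAVS, 1 of 17 genes rose and 0 fell by edgeR (unadjusted, 3 higher and 1 lower, and by DESeq2, 1 and 0). It was Irf7, the transcription factor that amplifies type I interferon production, with 343, 371 and 373 CPM in MSR1 KO and 133, 91.6 and 202 CPM in MSR1 WT libraries. The 3 MSR1 KO values were alike and the MSR1 WT values spanned 2.20-fold in the order that the sensors had. Its log2 fold change was 1.35 (SE 0.24, edgeR adjusted p = 0.025). Irf3, the constitutive relative of Irf7, had 31.5 ± 4.57 CPM against 29.5 ± 3.85 CPM (log2 fold change 0.09, adjusted p = 0.78), and the kinase gene Tbk1 had one of 0.15 (adjusted p = 0.32). Neither passed, nor did Trim25, a ubiquitin ligase of RIG-I (0.47), or Ikbkg, the NEMO subunit of the IKK complex (-0.51).

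In the cGAS and STING branch, 1 of 13 genes rose and 0 fell by edgeR (unadjusted and DESeq2, also 1 and 0). This was Tmem173, which encodes the adaptor STING, with 88.3, 107 and 94.8 CPM in MSR1 KO and 63.9, 68.8 and 69.3 CPM in MSR1 WT libraries (log2 fold change 0.52, SE 0.09, edgeR adjusted p = 0.024). The DNA sensor cGAS, listed as Mb21d1, had 15.0 ± 4.21 CPM against 12.4 ± 2.46 CPM and overlapped (log2 fold change 0.27, adjusted p = 0.61). Here the adaptor passed and the receptor did not, whereas Ddx58 and Ifih1 passed and their adaptor Mavs did not. The difference between these changes was not tested. For Xrcc5, a subunit of the Ku DNA-binding complex, the log2 fold change was -0.28 (edgeR adjusted p = 0.6).

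Around the endosomal receptors, 2 of 14 genes rose and 0 fell by edgeR (unadjusted, 8 higher and 0 lower; DESeq2, 3 and 0). Both act below the receptors. Myd88, the adaptor of TLR7 and TLR9, had 97.8 ± 5.60 CPM in MSR1 KO and 71.7 ± 5.64 CPM in MSR1 WT (log2 fold change 0.45, SE 0.09, adjusted p = 0.029). Irf5, a transcription factor activated through MYD88, had 202 ± 25.3 CPM and 133 ± 9.12 CPM (log2 fold change 0.60, SE 0.10, adjusted p = 0.024). Unc93b1, the chaperone that carries these receptors to endosomes, had 1668 ± 76.4 CPM against 1377 ± 60.8 CPM without overlap and missed the threshold narrowly (log2 fold change 0.28, adjusted p = 0.052), and Tlr3, the receptor of double-stranded RNA, did not pass at a log2 fold change of 0.43 (adjusted p = 0.17).

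Of the nucleases and RNA editing genes, 3 of 15 tested rose and 0 fell by edgeR (unadjusted, 7 higher and 1 lower; DESeq2, 4 and 1, the lower being Pld3). They were Pld4, a lysosomal exonuclease (log2 fold change 0.38), and the RNase T2 genes Rnaset2a (0.41) and Rnaset2b (0.32), which are near-identical copies whose reads may have been split. Pld4 and Rnaset2b lie outside the rule for named genes and were named because the count is small. Adar, which edits double-stranded RNA, had 162 ± 34.1 CPM against 118 ± 5.42 CPM (log2 fold change 0.46, adjusted p = 0.1), and Dnase1l3, a secreted DNase, had 2.28 ± 1.26 CPM against 0.805 ± 0.416 CPM (log2 fold change 1.503, adjusted p = 0.17). Neither passed.

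Around PKR, 0 of 14 genes of the integrated stress response rose or fell by edgeR (unadjusted, 0 higher and 1 lower; DESeq2, 0 and 1). The lower gene in both was Ppp1r15a, whose product reverses the phosphorylation that PKR sets, with 19.0 ± 0.733 CPM against 24.6 ± 1.86 CPM (log2 fold change -0.37, edgeR adjusted p = 0.073). Ddit3 (CHOP) had a log2 fold change of 0.32 and Chac1 of -0.28, neither past the threshold. Of 7 necroptosis partners of ZBP1, 1 rose and 0 fell by edgeR (unadjusted, 3 higher and 0 lower; DESeq2, 2 and 0). Mlkl, the executioner of necroptosis, had 39.5, 49.9 and 37.0 CPM in MSR1 KO and 24.8, 22.4 and 25.1 CPM in MSR1 WT libraries (log2 fold change 0.81, SE 0.12, edgeR adjusted p = 0.018). The kinase between ZBP1 and MLKL did not pass, as Ripk3 had 25.2 ± 4.32 CPM against 23.6 ± 1.29 CPM (log2 fold change 0.09, adjusted p = 0.77). Ripk1 (0.38) and Tnfaip3 (-0.23) did not pass either.

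Opposite to SAMHD1, which removes dNTPs, stand the enzymes that supply them. Of 9 such genes 1 rose and 0 fell by edgeR (unadjusted, 1 higher and 4 lower; DESeq2, 1 and 3, the lower being Rrm1, Rrm2 and Tk1). Dck, a salvage kinase, rose from 62.9 ± 12.7 CPM to 104 ± 4.92 CPM (log2 fold change 0.73, SE 0.13, edgeR adjusted p = 0.027). Rrm2, a subunit of ribonucleotide reductase, had 22.0 ± 3.44 CPM against 32.2 ± 4.45 CPM (log2 fold change -0.55, adjusted p = 0.078), and the log2 fold change of Tk1 was -0.61 (adjusted p = 0.077). Of 15 other RNA helicases and RNA-binding factors, 2 rose and 0 fell by edgeR (unadjusted, 3 higher and 3 lower; DESeq2, 3 and 2, the lower being Ddx3x and Adarb1). Those that rose were Ddx60, a helicase linked to RIG-I signalling (log2 fold change 0.89, adjusted p = 0.042), and Zfp36, which promotes decay of AU-rich mRNAs (0.41, adjusted p = 0.034). The log2 fold change of Adarb1, an RNA editing enzyme, was -0.81 (adjusted p = 0.058).

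**Figure D4:**
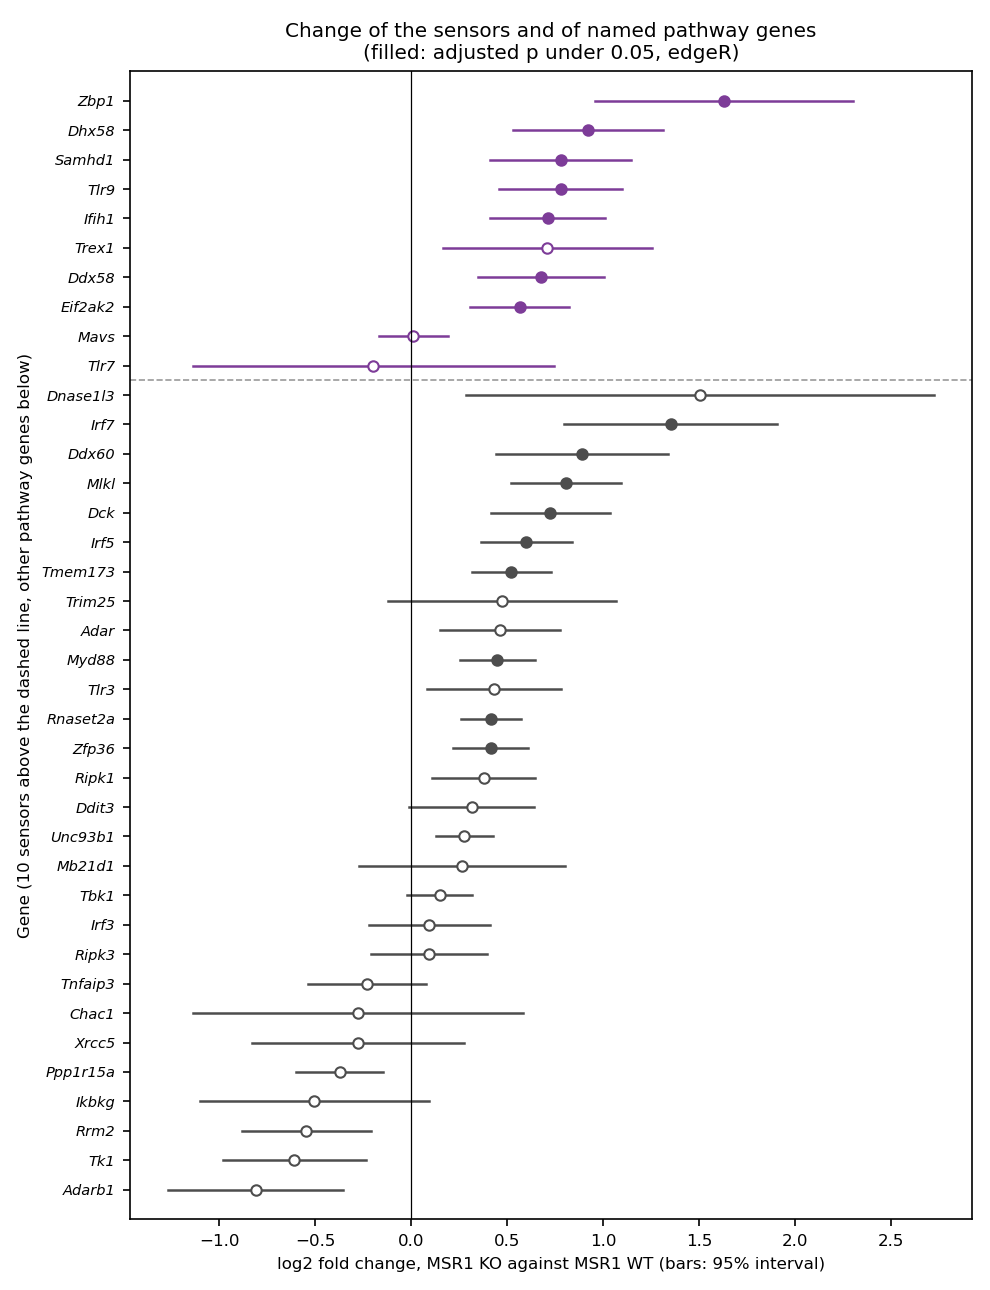
Log2 fold change (MSR1 KO against MSR1 WT, bars: 95% interval) of the 10 sensors (purple, above the dashed line) and of the named pathway genes (grey). Filled points had an edgeR adjusted p under 0.05. Of the sensors, 7 are filled and to the right of 0, and Mavs has the narrowest interval and Tlr7 the widest.

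The interferon genes themselves were barely counted. Of 21 type I, II and III interferon genes in the table, 17 were at 0 in every library, and none had enough counts to be tested across genes. Where nothing was counted, up to 3 counts remain possible, or 0.0632 to 0.0835 CPM in these libraries, and this covers counting error only. Ifnb1 (interferon beta) had 8, 6 and 0 counts in MSR1 KO and 0, 0 and 4 in MSR1 WT libraries (exact permutation p = 0.4). Ifnz had 2, 4 and 3 against 1, 2 and 4 counts (exact permutation p = 0.5), Ifne had 3, 0 and 0 against 0 in each (exact permutation p = 1.0), and Ifng had 0 in each against 4, 0 and 0 (exact permutation p = 1.0). None of these 4 p values was adjusted, and with 3 libraries against 3 none could have been below 0.1.

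The genes whose profile over the 6 libraries was most like that of Zbp1, by the Euclidean distance of centred log2 CPM among 13610 genes with a mean of at least 1 CPM, were Gm1966 (distance 0.127), Gm12216 (0.325), Ifi47 (0.325), Ifit2 (0.331) and Gm4951 (0.344). These likenesses were found on the same libraries as the fold changes. Gm1966 had 488, 622 and 326 CPM in MSR1 KO and 148, 115 and 221 CPM in MSR1 WT libraries, the order of libraries that Zbp1 had in both groups. Ifit2, an interferon-induced RNA-binding protein, had 448, 454 and 320.2 CPM and 119.8, 93.9 and 206 CPM.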

How the data were processed

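RNA-seq of 3 MSR1 KO and 3 MSR1 WT macrophage libraries was analysed from the authors' table of raw counts per gene, deposited without normalization. That table also holds a signal column per library (the count divided by a size factor) and the log2 fold change and p-values of the authors' own comparison, which were not used. The paper names TopHat 2.0.11 and FPKM values, whereas the submitters' processing notes name fastp 0.17.1, HISAT2 2.1.0, DESeq2 1.18.1 and R 3.4.3, so the aligner is uncertain. The counting program, strand setting and genome build are not given in the sources used here. All 10 members had the same coordinates in GENCODE M21 (GRCm38). Without strand, antisense reads are not separated, and reads in shared exons may be lost or split.

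The quasi-likelihood test of edgeR 4.0.16 (R 4.3.3; filterByExpr, TMM scaling, glmQLFit, glmQLFTest) was fitted to 16402 genes, with Benjamini-Hochberg adjustment over all of them. SEs were derived from the F statistic. Replicates differed by more than counting noise in every pair of a group. Exon lengths came from GENCODE and promoters from RefSeq. Scripts were tested on simulated counts. Alternatives were DESeq2 1.42.0, its size factors, library size alone, no filter, a minimum of 10 counts in each library, a block on replicate number, and leaving out each library.

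The members and lists were chosen with earlier results of these data known, and support nothing by themselves. Named genes were the 10 members and Msr1, of each pathway list the 3 largest changes at a mean of at least 1 CPM, 11 set partners (Mb21d1, Tmem173, Unc93b1, Myd88, Tbk1, Irf3, Irf7, Adar, Ripk3, Mlkl and Tlr3), counted interferon genes, the 2 most counted markers of each cell type and the 5 genes most like the member with the largest change. Others are named where a count, marker check or overlap turned on them. The summed level of the B cell markers is not reported here.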

Additional observations from a re-analysis of the deposited data

How the results depend on the processing

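Of the 10 genes, 7 were called higher with DESeq2's size factors, library size alone or at least 10 counts in every library, 8 by DESeq2 and 5 without a filter. With a library left out the count lay between 0 and 7, that of pathway genes called higher (11 with all libraries) between 0 and 9, and that of pathway genes called lower (0) between 0 and 2. The pathway genes called lower were 7 by DESeq2, 3 with library size alone and 2 with at least 10 counts in every library. Over all tested genes, the calls (369 higher and 436 lower) became 695 and 795 by DESeq2, 237 and 288 without a filter, 59 and 78 with the block, and as few as 18 and 53 without MSR1 WT replicate 1. With the replicate number as a block, 0 of the 10 genes and 0 pathway genes were called higher, and 7 of the 10 were DEGs by the study's rule. Same-numbered libraries did not deviate together over all genes (correlations of -0.03, 0.02 and -0.005). This cannot exclude a pairing that affects some genes, and the block also uses up residual degrees of freedom. With the block, the SE fell for Ddx58 (0.143 to 0.0994), Trex1 (0.237 to 0.183), Ifih1, Dhx58, Mavs and Eif2ak2. It rose for Zbp1 (0.293 to 0.352), Tlr7, Tlr9 and Samhd1. The sign of the log2 fold change turned in uncalled values alone, for Mavs with library size alone (-0.0219), without MSR1 KO replicate 2 (-0.0064) or 3 (-0.0141) and without MSR1 WT replicate 1 (-0.0229), and for Tlr7 without MSR1 KO replicate 1 (0.0144) or MSR1 WT replicate 3 (0.0389). With a library left out, Mavs ranged from -0.0229 to 0.0625 and Tlr7 from -0.6887 to 0.0389. Of 120 recomputed fold changes of the 10 genes, 71 kept direction and side of the threshold, 41 kept direction but lost the call, 2 gained a call (both Trex1) and 6 changed sign. Over all genes, leaving out MSR1 WT replicate 3 gave 407 higher and 372 lower calls, and leaving out any other library gave fewer in both directions. The cause was not tested. The spread between replicates exceeded counting noise in every pair of libraries of a group, and the effect of depth on the calls was not tested.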

Other observations

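The pattern of Tlr7 was followed across other genes after its values had been seen. Tlr8, the neighbouring receptor of RNA on the X chromosome, had 404, 434 and 368 CPM in MSR1 KO and 353, 351 and 355 CPM in MSR1 WT libraries, with a log2 fold change of 0.19 and an edgeR adjusted p of 0.21. It spanned less than 1.2-fold (highest over lowest) within each group, where Tlr7 spanned 2.26-fold and 2.67-fold. The high values of Tlr7 in MSR1 KO replicate 2 and MSR1 WT replicates 1 and 3 thus had no counterpart in Tlr8.

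The genes most like Tlr7 over the 6 libraries, among 13610 with a mean of at least 1 CPM, were Cpne1 (Euclidean distance 0.341), Crk (0.504), Sumo2 (0.519), Osr1 (0.544) and Zfp521 (0.546). None of them was a sensor on the lists used here. Cpne1, which encodes a calcium-dependent lipid-binding protein, had 33.2, 66.3 and 25.9 CPM in MSR1 KO and 59.5, 23.2 and 71.5 CPM in MSR1 WT libraries, and Crk, which encodes a signalling adaptor, had 53.6, 118 and 47.2 CPM and 116, 57.9 and 111 CPM. In both genes the 3 libraries high in Tlr7 exceeded the other 3. The list was picked by this likeness, so it gives no independent support to the pattern.

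Fcgr1, a high-affinity Fc receptor on the macrophage marker list, was the 1 marker of that list to rise, with 571, 607 and 510.5 CPM in MSR1 KO and 241, 196 and 331 CPM in MSR1 WT libraries (log2 fold change 1.14, edgeR adjusted p = 0.018). Its MSR1 WT libraries ranked in the order 3, 1 and 2, as did 9 of the 10 sensors. Mrc1, the mannose receptor, was the 1 marker of the list to fall (log2 fold change -0.39, edgeR adjusted p = 0.037). Of the 10 macrophage markers, 2 were higher and 3 lower at an unadjusted p under 0.05, and DESeq2 called 1 and 1. Over all tested genes, 2.25% rose and 2.66% fell by edgeR, and 8.65% and 10.2% did so without adjustment.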
